A study of Rattus norvegicus with 36 samples.

Results

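The lungs described here are those of the vehicle rats of a study of crystalline silica, followed from 1 to 180 days after a single instillation of saline, and they were chosen by their labels alone as the 18 of 36 arrays marked as control. All were female Sprague Dawley rats, 13 weeks old at instillation, that received sterile 0.9% NaCl by the intratracheal route under anesthesia. They were euthanized 1 day (D1), 30 days (D30) or 180 days (D180) later, with 6 rats per day, so the rats were about 17.3 weeks old at D30 and 38.7 weeks old at D180. RNA of the accessory lobe, preserved in RNAlater, was labeled and hybridized to a single-color Agilent array, 1 array per rat. The 18 remaining arrays of the series came from rats given DQ-12 silica in the same saline on the same days, and they are used here only for a side-by-side reading at the end. Since no uninstilled rats were used here, the D1 lungs are lungs 1 day after anesthesia and a saline instillation, and D180 against D1 joins the passage of 180 days, the growth from a young to an older adult and the distance from the procedure, which cannot be told apart.

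The adult lung keeps its shape through a scaffold of fibrillar collagens and elastic fibers laid down mainly by fibroblasts, which continue to renew it slowly through adult life. Cell division is infrequent in the adult lung at rest and is carried by genes that are switched on together at the G2/M phase of the cell cycle. The airways and alveoli also hold a resident population of lymphocytes and antibody-secreting cells, which is shaped by what the animal inhales during its life.

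Arrays of different days were never scanned together. The 18 arrays lay on 13 slides scanned on 9 dates, and 0 slides and 0 scan dates were shared between days, so that day cannot be told apart from slide or scan date in any comparison below. The share of probes well above background was 61.3 to 71.8% at D1, 57.1 to 68.9% at D30 and 56.6 to 75.5% at D180. Spike-in RNAs are added in equal amount to every labeling. The 6 of 10 that were measurable had a median difference of -0.91 on the log2 scale between D180 and D1 after 75th percentile scaling and of 0.62 between D30 and D1, and of -1.54 between D180 and D30, where 4 of the 6 had an unadjusted exact permutation p under 0.05. After adjustment 0 of the 6 passed in any of the 3 comparisons. Over 9 exact two-sided permutation tests of array quality, the correlation with arrays of the same day was lower at D180 than at D30 (means 0.973 and 0.981, adjusted p = 0.039), and the 75th percentile of log2 signal differed between these days with p = 0.0476 (adjusted p = 0.162). Surfactant protein C (Sftpc) was the brightest gene on each array and therefore had 1 common value after quantile normalization, and the alveolar type 1 marker Ager, the club cell marker Scgb1a1 and the endothelial marker Pecam1 were well above background on all 18 arrays. Cardiac Myh6, which rodents also express in the muscle sleeve of the pulmonary veins, was measured at 12.59 to 13.76 at D1, 13.04 to 13.80 at D30 and 13.16 to 13.70 at D180 (medians 13.44, 13.68 and 13.37). Of the thymus markers, Rag1 was too dim to be tested, Dntt was well above background on 2, 2 and 3 of 6 arrays of the days, and Ptcra was well above background on all 18 arrays, with means of 7.81, 7.56 and 7.59. One D180 lung, replicate 5, had the highest skeletal actin Acta1 (10.38 against 6.99 to 8.67 in the other D180 lungs) and the highest adipokine Adipoq (8.96 against 5.81 to 7.78). The skeletal myosin Myh4 was highest in D180 replicate 4 (7.61), with 6.24 in replicate 5. The counts without D180 replicate 5 are given where they differ.

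Values below are quantile normalized log2 signals, a log2FC is the difference of mean log2 signals between days ± its standard error, and ranges are the lowest and highest of 6 lungs. A gene was called at a fold change of at least 2 with an adjusted p under 0.05 (limma, Benjamini–Hochberg over 22622 genes), and the text also counts genes by adjusted p alone. In D180 against D1, 301 genes were called, which is 1.33% of those tested, 143 higher (0.632%) and 158 lower (0.698%) at D180. By adjusted p alone 1882 genes passed, 1046 higher (4.62%) and 836 lower (3.70%), and for 1205 genes (5.33%) the 6 lungs of one day all lay beyond the 6 of the other. The shares of 4.62% and 3.70% are the background of each list count in D180 against D1 below. Among the 301 called genes, 245 (81.4%) had a mean signal below the median gene's 7.50, so most large changes were measured on dim probes. The balance of directions depended on the scaling. When arrays were instead scaled by their 75th percentile, 498 genes passed both thresholds, of which 62 (12.5%) were higher, in place of 143 of 301 (47.5%). With slide as a random block 130 genes were called, and with scan date as a random block 99. Another background correction (normexp) gave 48 called genes, 12 higher and 36 lower, and the median signal without background correction gave 70. Direction also went with the share of G and C bases (GC) of the probe, a grouping chosen after seeing the data. By adjusted p, genes higher at D180 than at D1 had a median probe GC of 36.7% and lower genes 43.3%, against 43.3% over all genes. The median log2FC of genes with probes of 30 to 40% GC was 0.10, and of those with 50 to 60% GC -0.13. The cause was not tested. The bulk signal of a lobe cannot tell fewer cells of a type from less RNA per cell.

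The genes of the collagen scaffold that passed the test all fell. Of 27 collagens and elastic fiber genes tested, 10 were lower at D180 by adjusted p (37.0%, against 3.70% of all genes) and 0 were higher, with a median log2FC of -0.39 against 0.00 over all genes. The 3 members called at the 2-fold threshold were the chains of the main fibrillar collagens, types I and III. Col1a1, the alpha 1 chain of type I collagen, was 12.98 to 13.48 at D1, 12.15 to 13.46 at D30 and 11.50 to 12.54 at D180 (medians 13.37, 12.89 and 11.91). No D180 lung overlapped the D1 lungs, and the D30 lungs overlapped both. This was a 2.42-fold fall (log2FC -1.27 ± 0.23, adjusted p = 0.00366), and another probe of the gene gave a log2FC of -1.67.

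Col1a2, the alpha 2 chain of the same trimer, was 14.31 to 14.94 at D1, 13.67 to 14.54 at D30 and 13.10 to 13.74 at D180 (medians 14.69, 14.11 and 13.46). It too fell without overlap (log2FC -1.21 ± 0.17, adjusted p = 0.00122). Col3a1, the single chain of type III collagen, which is laid down beside type I in distensible tissue, was 13.53 to 14.19 at D1, 12.98 to 14.29 at D30 and 11.68 to 13.43 at D180 (medians 13.83, 13.61 and 12.84), with a log2FC of -1.18 ± 0.26 (adjusted p = 0.0117). In all 3 genes the D1 and D180 lungs did not overlap. They had similar log2FC, with the D30 medians between those of D1 and D180. Fibrillin-1 (Fbn1), the backbone of the microfibrils on which elastin is deposited, was 8.93 to 9.40 at D1, 8.77 to 9.50 at D30 and 7.68 to 8.74 at D180 (medians 9.18, 9.10 and 8.38), with a log2FC of -0.86 ± 0.18 (adjusted p = 0.00873). The remaining members that fell were the beaded filament collagens Col6a1 (-0.67), Col6a2 (-0.71) and Col6a3 (-0.65), the fibril-nucleating chains Col5a1 (-0.33) and Col5a2 (-0.52), and the microfibril protein Mfap5 (-0.53), with log2FC in parentheses. At D30 against D1, 0 of the 27 members had passed in either direction, where 2.28% of all genes were higher and 2.85% lower by adjusted p. In D180 against D30, which shares the D180 lungs with the main comparison, 9 were lower (background 5.07%) and 0 higher (4.46%), among them the elastin gene Eln (log2FC -0.71), whose D180 against D1 log2FC was -0.41 (adjusted p = 0.242).

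**Figure D1:**
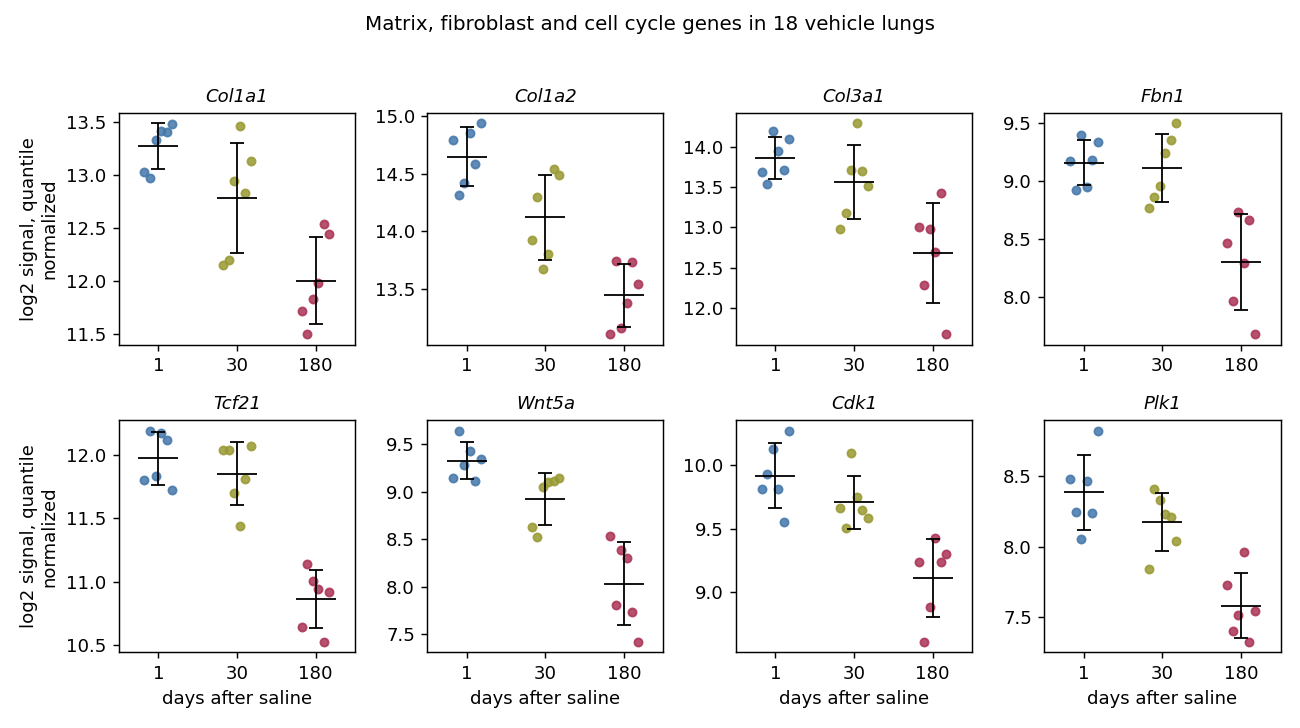
Log2 signal (vertical axis) of 8 genes in each vehicle lung by day after instillation (horizontal axis, 6 lungs per day), with the mean ± SD in black. Col1a1, Col1a2, Col3a1, Fbn1, Tcf21 and Wnt5a are matrix and fibroblast genes, and Cdk1 and Plk1 are cell cycle genes. For Col1a1 the D180 lungs sit between 11.50 and 12.54, all below the D1 lungs.

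Enzymes that mature collagen were less uniform. Of 24 genes of collagen processing and crosslinking, 4 were lower and 1 was higher at D180. The lysyl oxidases Loxl1 (-0.75) and Loxl2 (-0.77), which crosslink elastin and collagen, the prolyl 3-hydroxylase P3h3 (-0.63) and the procollagen C-proteinase enhancer Pcolce (-0.49) fell, and Loxl4 (0.73) rose. The other probe of Loxl4, well above background on 6 of 6 D1 and 5 of 6 D180 arrays, gave a log2FC of 0.19 (adjusted p = 0.732). When the median over all probes of a gene was used, the log2FC of P3h3 was 0.11, and with slide or scan date as a random block 0 of the 24 members were lower. With any 1 lung left out the count of 4 ran from 0 (without D1 replicate 6 or D180 replicate 1 or 3) to 7 (without D180 replicate 6). The count of collagens and elastic fiber genes was 7 to 10 of 27 with any 1 lung left out, 6 with slide as a random block and 5 with scan date, where Col1a1, Col1a2, Col3a1, Fbn1 and Col6a1 passed. Mmp14, the membrane-bound protease that cleaves type I collagen, was also lower at D180, with a log2FC of -1.18 against D30 (adjusted p = 2.2e-05) and -0.93 against D1 (adjusted p = 0.000304).

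Among fibroblast and smooth muscle genes, 3 of 27 were lower (11.1%, against 3.70% of all genes) and 0 higher. Tcf21, a transcription factor of lung lipofibroblasts, was 11.72 to 12.19 at D1, 11.44 to 12.07 at D30 and 10.53 to 11.14 at D180 (medians 11.97, 11.92 and 10.93). The D180 lungs lay wholly below the others (log2FC -1.11 ± 0.14, adjusted p = 0.000491), while D30 and D1 overlapped, with a log2FC of -0.12 between them (adjusted p = 0.642). The smooth muscle genes Myh11 (-0.40) and Actg2 (-0.49) fell less and did not pass with slide or scan date as a random block. Wnt5a, a secreted Wnt ligand made by mesenchymal cells, was 9.12 to 9.64 at D1, 8.52 to 9.14 at D30 and 7.42 to 8.54 at D180 (medians 9.31, 9.08 and 8.06), with a log2FC of -1.29 ± 0.18 (adjusted p = 0.00117), and its other probe gave -0.48. Among imprinted growth genes, which mostly act in fetal and early postnatal growth, 2 of 18 were lower (11.1%, against 3.70% of all genes), Ndn (log2FC -0.87 ± 0.14, adjusted p = 0.00191) and Mest (log2FC -0.63 ± 0.19, adjusted p = 0.0499), and 0 were higher. Mest did not pass under 21 of 28 alternatives, both random blocks among them. Ndn was 10.45 to 11.04 at D1, 10.47 to 10.95 at D30 and 9.41 to 10.28 at D180 (medians 10.73, 10.72 and 9.89), and the D180 lungs lay below those of both earlier days.

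The cell cycle genes that passed also all fell. Of 60 genes of DNA replication and mitosis, 12 were lower at D180 (background 3.70%), 0 were higher, 48 of the 60 had a negative log2FC and the median was -0.39. The count of 12 was 7 with slide as a random block and 5 with scan date. Cdk1, the kinase that drives entry into mitosis, was 9.55 to 10.27 at D1, 9.50 to 10.09 at D30 and 8.61 to 9.42 at D180 (medians 9.87, 9.65 and 9.24), with a log2FC of -0.80 ± 0.15 (adjusted p = 0.005). Plk1, which acts in spindle assembly and mitotic exit, was 8.06 to 8.82 at D1, 7.85 to 8.41 at D30 and 7.33 to 7.96 at D180 (medians 8.36, 8.22 and 7.53), with a log2FC of -0.80 ± 0.14 (adjusted p = 0.00331). For both genes the 6 D180 lungs lay below the 6 D1 lungs, and for both the difference from D30 also passed (log2FC -0.59, adjusted p = 0.021 and log2FC -0.60, adjusted p = 0.0133).

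The promoters of both genes are shown because 2 sequence elements known from G2/M genes, the CCAAT box and the TTTGAA core of the cell cycle homology region, could be looked for in them. The sequences are those of RefSeq (GRCr8), from 250 bases before to 50 bases after the annotated start, at chr20:19265043-19265342 (+ strand) for Cdk1 and chr1:186147408-186147707 (+ strand) for Plk1, and capitals mark each CCAAT or TTTGAA on either strand.
Cdk1: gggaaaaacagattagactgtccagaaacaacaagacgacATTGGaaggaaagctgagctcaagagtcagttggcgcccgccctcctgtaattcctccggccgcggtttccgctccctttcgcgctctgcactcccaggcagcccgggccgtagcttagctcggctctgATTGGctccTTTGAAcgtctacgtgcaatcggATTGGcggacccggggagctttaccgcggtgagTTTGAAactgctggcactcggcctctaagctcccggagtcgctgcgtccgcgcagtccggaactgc
Plk1: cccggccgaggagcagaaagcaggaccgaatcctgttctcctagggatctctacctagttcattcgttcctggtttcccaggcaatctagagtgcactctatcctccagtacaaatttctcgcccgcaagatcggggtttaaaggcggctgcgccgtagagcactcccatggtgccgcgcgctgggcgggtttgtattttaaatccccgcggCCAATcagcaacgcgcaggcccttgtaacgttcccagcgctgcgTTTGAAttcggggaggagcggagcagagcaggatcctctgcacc
Of 44 tested cell cycle genes with a promoter in the RefSeq table, 31 (70.5%) held a CCAAT and 21 (47.7%) a TTTGAA, where 37.5% and 18.3% of all 33469 promoters of that length did. Among the 10 of them that fell by adjusted p the shares were no higher, with 7 (70%) and 4 (40%). Of 18 collagen and elastic fiber genes with an entry, 6 (33.3%) held a CCAAT and 1 (5.56%) a TTTGAA. A match is a match of letters only.

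Among the other cell cycle genes, Melk, an embryonic leucine zipper kinase of dividing cells, was 5.76 to 6.31 at D1, 4.62 to 5.73 at D30 and 3.62 to 5.00 at D180 (medians 6.04, 5.13 and 4.73), and was the only called member (log2FC -1.49 ± 0.22, adjusted p = 0.00154). Kif11 (adjusted p = 0.0406), a spindle motor, Ect2 (log2FC -0.96, adjusted p = 0.00811), which acts in cytokinesis, and Brca1 (log2FC -0.91, adjusted p = 0.0106), which acts in DNA repair, followed. The replication genes Rrm2 (-0.83), Tk1 (-0.75) and Mcm3 (-0.52) and the mitotic genes Ccna2 (-0.64), Top2a (-0.58) and Aurka (-0.33) also fell. The other probe of Tk1, well above background on all arrays, gave a log2FC of -0.14 (adjusted p = 0.727). At D30 against D1, 2 of the 60 were lower, Melk and Exo1, and 0 were higher. In D180 against D30, 8 were lower and 0 higher. The D180 count was 19 with 75th percentile scaling and 7 without D1 replicate 6. Which cell types carried these transcripts was not resolved in bulk RNA.

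**Figure D2:**
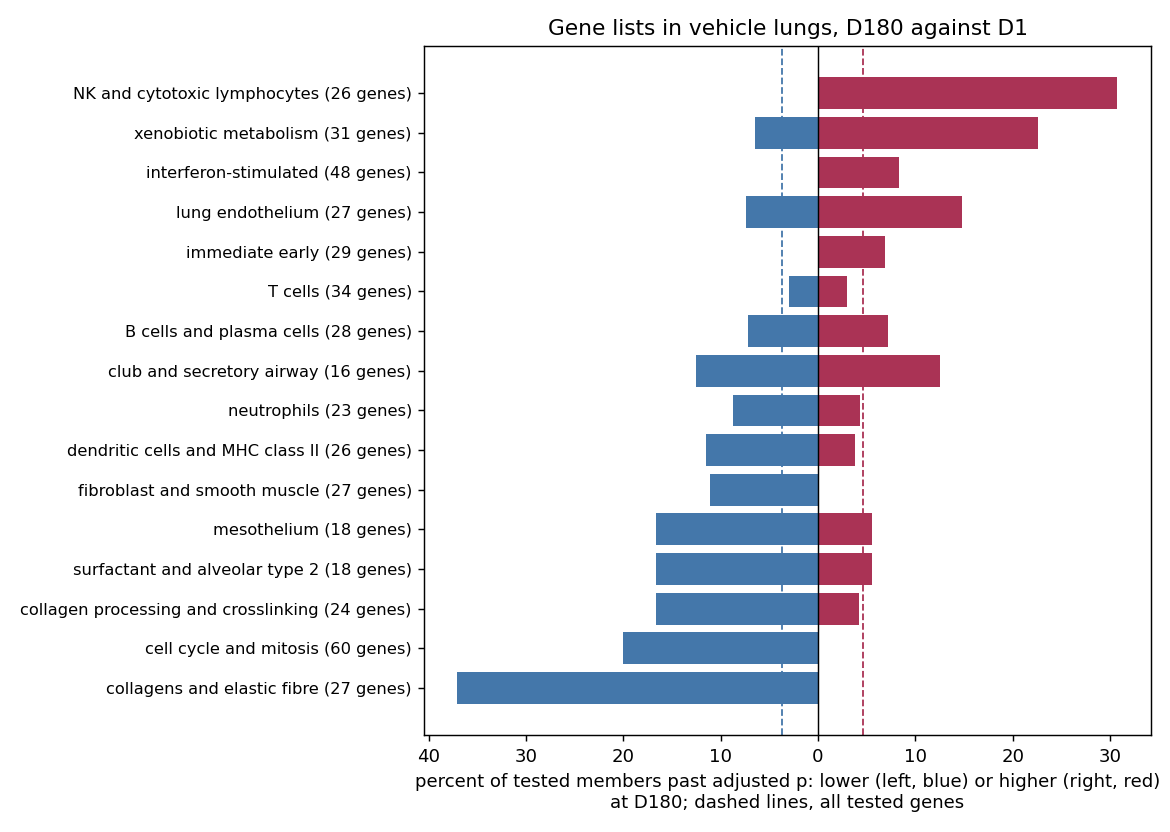
Percent of the tested members of 16 gene lists (rows) that were lower (blue, to the left) or higher (red, to the right) at D180 than at D1 by adjusted p, with dashed lines at the percent over all 22622 tested genes. Collagens and elastic fiber genes have 10 of 27 members on the left and cell cycle genes 12 of 60, and NK and cytotoxic lymphocyte genes have 8 of 26 on the right, each with none on the other side.

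Some genes of cytotoxic lymphocytes were higher. Of 26 NK and cytotoxic genes, 8 were higher at D180 (30.8%, against 4.62% of all genes) and 0 lower, with a median log2FC of 0.37, although 1 of the 8, Eomes, had probes that disagreed. The count was 2 with slide as a random block and 1 with scan date, where Gzmb passed. Granzyme B (Gzmb), a serine protease of cytotoxic granules, was 8.93 to 9.68 at D1, 9.32 to 10.03 at D30 and 9.82 to 10.86 at D180 (medians 9.19, 9.87 and 10.23), with a log2FC of 1.02 ± 0.19 (adjusted p = 0.00433). Granzyme C (Gzmc), a related granule protease, was 8.93 to 10.04 at D1, 9.68 to 10.97 at D30 and 10.26 to 11.13 at D180 (medians 9.55, 10.33 and 10.50), with a log2FC of 1.08 ± 0.23 (adjusted p = 0.00951). In both genes all D180 lungs lay above all D1 lungs, with D30 medians between. Sh2d1b2, an adaptor of SLAM family receptors in NK cells that was outside the list, was 4.11 to 5.38 at D1, 4.54 to 5.61 at D30 and 6.03 to 6.55 at D180 (medians 4.62, 5.30 and 6.29), with a log2FC of 1.61 ± 0.21 (adjusted p = 0.000695).

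The NK receptors Klrd1 (0.48) and Klrb1a (0.78), granzyme K Gzmk (0.51), the chemokine Ccl5 (0.38) and Samd3 (0.54) rose by less than 2-fold, and none of these 5 passed with slide or scan date as a random block. The transcription factor Eomes, also called at a log2FC of 1.07, cannot be given a direction, because its other probe had a log2FC of -1.11 (adjusted p = 0.311). At D30 against D1, 6 of the 26 were higher (background 2.28%) and 0 lower, Klrd1, Klrb1c, Gzmk, Gzmc, Ccl5 and, by the one probe, Eomes, and in D180 against D30 0 were higher and 1 was lower. The D180 count was 5 without D180 replicate 5. Of 34 T cell genes, 1 was higher and 1 lower (2.94% each, against 4.62% and 3.70% of all genes). The tissue-homing receptor Cxcr6 was higher (log2FC 0.95 ± 0.21, adjusted p = 0.0114) and the inhibitory receptor Pdcd1 lower (log2FC -0.97 ± 0.22, adjusted p = 0.0143), and neither passed with scan date as a random block.

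A gene of antibody-secreting cells rose and 2 genes of B cells fell. Jchain, which joins the subunits of secreted IgA and IgM, was 10.71 to 11.78 at D1, 11.62 to 12.60 at D30 and 11.88 to 13.71 at D180 (medians 11.31, 12.39 and 12.75). All 6 D180 lungs were above all D1 lungs (log2FC 1.45 ± 0.28, adjusted p = 0.00658). Xbp1, a factor of secretory cells, was higher (log2FC 0.46 ± 0.11, adjusted p = 0.0195), whereas the B cell surface protein Ms4a1 (log2FC -0.86 ± 0.20, adjusted p = 0.0141) and the follicular homing receptor Cxcr5 (log2FC -0.52 ± 0.14, adjusted p = 0.0284) were lower. In this list 2 of 28 members thus rose and 2 fell (7.14% each, against 4.62% and 3.70% of all genes). Xbp1 and Cxcr5 did not pass with slide or scan date as a random block. Ms4a1 was 8.98 to 9.83 at D1, 9.03 to 9.81 at D30 and 8.21 to 9.25 at D180 (medians 9.56, 9.50 and 8.61). The D180 lungs overlapped those of D1, and the log2FC at D30 against D1 was -0.05 (adjusted p = 0.919).

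Of 48 interferon-stimulated genes, 4 were higher (8.33%, against 4.62% of all genes) and 0 lower. A positive log2FC was found in 40 of the 48, with a median of 0.22, and in 11428 of all 22622 genes. Cxcl9, a chemokine that draws CXCR3-bearing T and NK cells, was 5.58 to 7.25 at D1, 6.74 to 7.73 at D30 and 7.24 to 7.94 at D180 (medians 5.83, 7.03 and 7.51). The D1 and D180 ranges met at their edges. Cxcl9 was the one called member (log2FC 1.35 ± 0.27, adjusted p = 0.00685). Isg15 (0.64), Ifit2 (0.62) and Irf9 (0.39) rose by less than 2-fold. With scan date as a random block only Ifit2 of the 48 passed, and without D1 replicate 2 the count was 2. Of 37 acute phase and inflammation genes, 2 were higher, the cytokine Il1a (0.83) and the chemokine Ccl4 (0.63), and 3 were lower, the monocyte chemokine Ccl12 (-1.26), the metalloprotease inhibitor Timp1 (-0.48) and Saal1 (-1.83). Il1a and Ccl4 did not pass with slide or scan date as a random block. Saal1 was 10.62 to 11.92 at D1, 8.71 to 9.60 at D30 and 9.02 to 10.46 at D180 (medians 11.78, 9.50 and 9.62), low at D30 as well as at D180 (D30 against D1, log2FC -2.13, adjusted p = 0.000542).

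**Figure D3:**
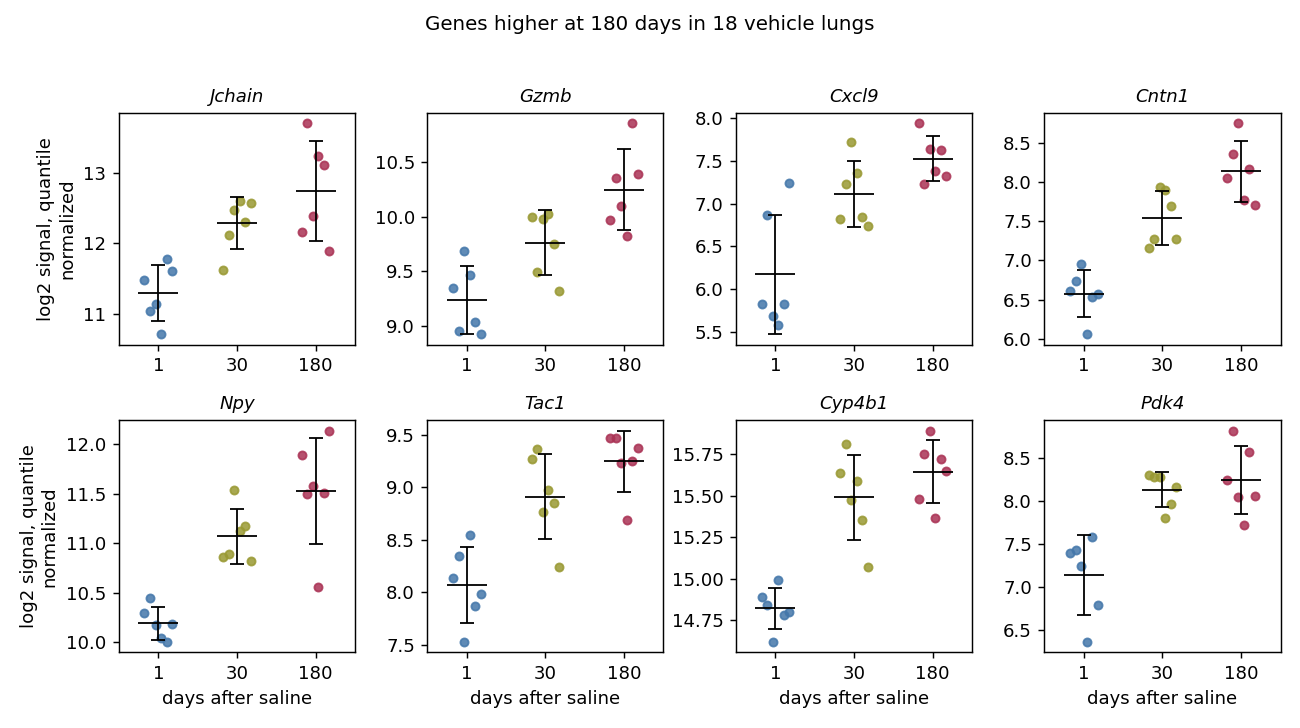
Log2 signal (vertical axis) of 8 genes that were higher at D180 in each vehicle lung by day (horizontal axis, 6 lungs per day), with the mean ± SD in black. Jchain, Gzmb and Cxcl9 are immune genes, Cntn1, Npy and Tac1 are expressed by nerve cells, and Cyp4b1 and Pdk4 are metabolic genes. All D180 lungs lie above all D1 lungs for Cntn1, between 7.71 and 8.75 against 6.06 and 6.96.

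Few phagocyte genes passed. Of 37 macrophage and monocyte genes, 1 was higher (2.70%) and 2 were lower (5.41%) at D180, shares near those of all genes (4.62% and 3.70%), the lipid receptor Trem2 (log2FC -0.83 ± 0.18, adjusted p = 0.0124) and the complement chain C1qb (log2FC -0.32 ± 0.08, adjusted p = 0.0222) being lower and the tetraspanin Cd9 (log2FC 0.61 ± 0.15, adjusted p = 0.0203) higher, and none of the 3 passed with scan date as a random block. At D30, 5 of the 37 were lower than at D1 (13.5%, background 2.85%) and 0 higher. They were Trem2 (log2FC -0.87), C1qb (-0.39), the lysosomal protein Cd68 (-0.62), Chi3l1 (-0.75) and the scavenger receptor Marco, which was well above background on 2 of 6 arrays at D1 and D180 and on 0 at D30, so no fold is given. Cd68 was higher again in D180 against D30 (log2FC 0.68). Of 23 neutrophil genes, Camp (log2FC -0.88 ± 0.18, adjusted p = 0.00944) and Cd177 (log2FC -0.82 ± 0.25, adjusted p = 0.0497) were lower at D180, and Mpo, well above background on 0 of 6 D1 and 2 of 6 D180 arrays, was higher. Cd177, a surface protein of neutrophils, was 10.47 to 10.88 at D1, 8.48 to 9.60 at D30 and 8.88 to 10.31 at D180 (medians 10.63, 9.36 and 10.10), the D1 lungs being the highest. Its log2FC at D30 against D1 was -1.46 (adjusted p = 0.00371), and at D180 it did not pass with slide or scan date as a random block. Of 26 dendritic cell and MHC class II genes, the transactivator Ciita (-0.67), the integrin Itgae (-0.57) and RT1-DMb (-0.37) were lower (11.5%) and RT1-Da (0.46) was higher (3.85%). RT1-DMb and RT1-Da did not pass with slide or scan date as a random block, and the other probe of Ciita gave a log2FC of 0.18 (adjusted p = 0.685).

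Several genes known from nerves were among the largest rises, although the nerve list as a whole was not. Cntn1, a neuronal cell adhesion protein, was 6.06 to 6.96 at D1, 7.17 to 7.94 at D30 and 7.71 to 8.75 at D180 (medians 6.59, 7.49 and 8.11), with a log2FC of 1.56 ± 0.19 (adjusted p = 0.000508). Another probe of Cntn1 gave a log2FC of 1.24 (adjusted p = 0.0176), and the third was not well above background in any lung. Npy, neuropeptide Y of sympathetic nerves, was 10.01 to 10.45 at D1, 10.82 to 11.54 at D30 and 10.56 to 12.14 at D180 (medians 10.18, 11.01 and 11.54), with a log2FC of 1.33 ± 0.20 (adjusted p = 0.00166). Tac1, the precursor of substance P of sensory nerves, was 7.53 to 8.55 at D1, 8.24 to 9.36 at D30 and 8.69 to 9.47 at D180 (medians 8.06, 8.91 and 9.31), with a log2FC of 1.18 ± 0.20 (adjusted p = 0.0029). For Npy and Tac1, as for Cntn1, all 6 D180 lungs lay above all 6 D1 lungs. The somatostatin receptor gene Sstr1 was 7.26 to 7.62 at D1, 7.44 to 8.56 at D30 and 8.36 to 9.27 at D180 (medians 7.48, 7.99 and 8.66), again without overlap between D1 and D180 (log2FC 1.26 ± 0.18, adjusted p = 0.00122). Of the 29 genes of the nerve and glia list, however, only Tac1 was higher by adjusted p and 1, the peripheral neurofilament Prph (log2FC -0.83 ± 0.19, adjusted p = 0.0144), was lower, shares near the background, and the median log2FC was 0.15.

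Some genes that metabolize foreign compounds rose. Of 31 genes of xenobiotic metabolism, 7 were higher at D180 (22.6%, against 4.62% of all genes) and 2 lower (6.45%, against 3.70%). The count of 7 was 2 with slide or scan date as a random block, where Cyp4b1 and Fmo1 passed. Cyp4b1, a cytochrome P450 abundant in club cells, was 14.62 to 14.99 at D1, 15.07 to 15.82 at D30 and 15.37 to 15.89 at D180 (medians 14.82, 15.53 and 15.69), with a log2FC of 0.82 ± 0.12 (adjusted p = 0.00135). The other probe of Cyp4b1, well above background on all arrays, gave a log2FC of 0.34 (adjusted p = 0.431). Flavin monooxygenase 1 (Fmo1) was 11.91 to 12.49 at D1, 11.63 to 12.96 at D30 and 12.80 to 13.93 at D180 (medians 12.11, 12.66 and 13.06). No D1 lung reached the D180 range in either gene, and Fmo1 was the one called member of the list (log2FC 1.06 ± 0.23, adjusted p = 0.0102). Cyp2e1 (0.78), the aldehyde dehydrogenases Aldh1a1 (0.39) and Aldh3a1 (0.48), the sulfotransferase Sult1a1 (0.58) and Tiparp (0.37) rose less, and 2 genes of the Nrf2-dependent oxidative stress response, Nqo1 (log2FC -0.69 ± 0.13, adjusted p = 0.00503) and Hmox1 (log2FC -0.87 ± 0.18, adjusted p = 0.0085), fell. Hmox1, which degrades heme, was 10.12 to 11.50 at D1, 9.46 to 10.11 at D30 and 9.54 to 10.00 at D180 (medians 10.56, 9.80 and 9.76), highest at D1. The count of 7 dropped to 4 without D1 replicate 1, 2, 4, 5 or 6 or D180 replicate 5, and to 4 with probe GC classes centered (an alternative chosen after seeing the data).

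Some secretory genes of the airways fell. Bpifb1, a secreted protein of mucosal glands and airway goblet cells, was 10.57 to 11.89 at D1, 9.67 to 10.63 at D30 and 9.17 to 9.95 at D180 (medians 11.10, 10.20 and 9.39). It was lower at D180 (log2FC -1.64 ± 0.21, adjusted p = 0.000698) and also at D30 against D1 (log2FC -0.89, adjusted p = 0.0246). Agr2, which folds mucins, was 10.06 to 10.61 at D1, 9.28 to 10.07 at D30 and 9.08 to 9.59 at D180 (medians 10.22, 9.70 and 9.44), with a log2FC of -0.86 ± 0.14 (adjusted p = 0.00236). For both genes the D180 lungs lay below all D1 lungs. Agr2 was likewise lower at D30 (log2FC -0.62, adjusted p = 0.0185). With Aldh1a1 and the antimicrobial lectin Reg3g higher, 2 of 16 club and secretory genes rose and 2 fell, and Reg3g was not well above background on any D1 or D30 array. Of 18 surfactant and alveolar type 2 genes, Sftpb (-0.29), the protease Napsa (-0.51) that processes it and Muc1 (-0.56) were lower and the lipid enzyme Lpcat1 (0.64) was higher. None of these 4 passed with scan date as a random block. The other probe of Sftpb, well above background on all arrays, gave a log2FC of -0.08 (adjusted p = 0.631), so its fall rests on 1 probe. Sftpb was also near the top of the signal range, where lungs shared values after quantile normalization (17.515 in D1 replicates 1 and 6).

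In the vessel wall, 4 of 27 endothelial genes were higher (14.8%, against 4.62% of all genes) and 2 lower (7.41%, against 3.70%). Higher were the capillary genes Ednrb (log2FC 0.71 ± 0.12, adjusted p = 0.0029), Apln (log2FC 0.60 ± 0.08, adjusted p = 0.000724) and Plvap (log2FC 0.49 ± 0.10, adjusted p = 0.0101) and the adhesion molecule Icam1 (0.51), and lower were the arterial connexin Gja5 (-0.61) and the venular selectin Selp (-0.75). Apln was 13.98 to 14.21 at D1, 14.46 to 14.87 at D30 and 14.55 to 14.73 at D180 (medians 14.05, 14.69 and 14.67), and it was higher at D30 too (log2FC 0.62, adjusted p = 0.000544). Gja5, Selp and Icam1 did not pass with scan date as a random block. The other probes of Ednrb and Gja5, well above background on all arrays, gave log2FC of 0.12 (adjusted p = 0.639) and -0.04 (adjusted p = 0.92). Another probe gave 0.85 for Apln and -0.83 for Selp. Of 18 mesothelial genes, Msln (log2FC -0.58 ± 0.09, adjusted p = 0.00189), Upk1b (log2FC -0.64 ± 0.11, adjusted p = 0.00364) and Krt18 (-0.57) were lower and Gpm6a (log2FC 0.87 ± 0.16, adjusted p = 0.005) was higher. Msln, a surface protein of the pleural lining, was 12.69 to 13.08 at D1, 12.47 to 12.91 at D30 and 12.12 to 12.44 at D180 (medians 12.84, 12.65 and 12.26). The D1 and D180 lungs did not overlap for Msln.

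Genes that respond within minutes to handling or within hours to stress hormones were also examined. Per the paper, rats of every day were deeply anesthetized for tissue collection, and the D1 rats had also been anesthetized for instillation the day before. The part of either anesthesia was not tested. Of 29 immediate early genes, 2 were higher at D180 (6.90%, against 4.62% of all genes), Junb (log2FC 0.81 ± 0.16, adjusted p = 0.00658) and Nr4a1 (log2FC 1.01 ± 0.29, adjusted p = 0.0392), and 0 were lower. A positive log2FC was found in 23 of the 29, and in 11428 of all 22622 genes. Junb also passed with slide or scan date as a random block, and Nr4a1 did not. Of 22 glucocorticoid-responsive genes, Pdk4, which shifts fuel use from glucose to fat, and Sult1a1 were higher (9.09%, against 4.62% of all genes) and 0 lower. Pdk4 was 6.37 to 7.58 at D1, 7.80 to 8.30 at D30 and 7.72 to 8.82 at D180 (medians 7.32, 8.22 and 8.15), with a log2FC of 1.11 ± 0.21 (adjusted p = 0.00508). All D30 and D180 lungs lay above all D1 lungs, and Pdk4 was also higher at D30 against D1 (log2FC 1.00, adjusted p = 0.0129). Of 27 clock genes only Rora was higher (log2FC 0.55 ± 0.13, adjusted p = 0.0197), and neither Rora nor Sult1a1 passed with slide or scan date as a random block. Time of day was not tested, and Per3, a clock gene, was 7.20 to 7.78 at D1, 6.06 to 6.90 at D30 and 6.59 to 7.88 at D180 (medians 7.56, 6.47 and 7.20), lower at D30 than at D1 (log2FC -1.04, adjusted p = 0.00434).

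In D180 against D1 few genes passed in lists of tissue that an accessory lobe sample could carry. Of 29 cardiac muscle genes 1 was higher (Ryr2, 0.74), of 21 adipose genes 1 was higher (Aqp7, 1.23, not well above background on any D1 array), and of 26 skeletal muscle genes, 18 genes of thymus and lymph node and 17 of thyroid, parathyroid and esophagus 0 passed. A positive log2FC was found in 22 of the 26 skeletal muscle genes (median 0.49) and in 21 of the 29 cardiac genes (median 0.23), against 11 of the 21 adipose genes (median 0.01). The mean log2 signal over the skeletal muscle genes ran from 5.89 to 6.17 at D1, 5.62 to 6.01 at D30 and 5.96 to 9.04 at D180. Over the cardiac genes it ran from 8.19 to 9.03, 8.57 to 9.36 and 8.55 to 9.65. In D180 against D30, 3 of the 17 genes of thyroid, parathyroid and esophagus were higher (17.6%, background 4.46%), among them Tshr (1.11) and Sprr3 (1.03), and 1 was lower. In the same comparison 2 of 21 adipose genes (Thrsp and Angptl8), 1 skeletal muscle gene (Myh8) and 1 cardiac gene (Myl3) were higher. The part of such tissue in the results was not tested. Other lists also had few members past the threshold. These were 1 higher of 16 alveolar type 1 genes, 2 lower of 25 ciliated cell genes, 1 lower of 19 genes of the growth hormone axis, 1 higher of 22 histone genes, 1 higher of 19 senescence genes (the antiageing hormone Kl, 0.79), 0 of 23 mast cell genes, 2 higher of 31 heat shock genes, 1 lower of 32 genes of cholesterol and fatty acid synthesis (Cyp51, -0.75), 1 higher and 2 lower of 31 respiratory chain genes, 2 lower of 50 ribosomal protein genes and 1 higher of 27 erythroid and platelet genes. The other probe of Cyp51, well above background on all arrays, gave a log2FC of -0.18 (adjusted p = 0.539). Without D180 replicate 5, 223 genes were called in place of 301, with 8 collagens and elastic fiber genes and 10 cell cycle genes lower.

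The 12 largest rises and falls were taken among called genes with a full name whose days did not overlap and that were well above background on at least 4 of 6 arrays of each day. Besides the genes already described, the rises included Caln1, Adamts4, Fam43b, Slc13a4, Lrrc37a, Mpzl1 and Rpusd2, and the falls included Shisa8, Rnase1l2, Cdh22, Mup4 and Fam151a. Adamts4, a protease of the aggrecan matrix, was 3.62 to 4.83 at D1, 5.64 to 6.07 at D30 and 5.12 to 5.94 at D180 (medians 4.54, 6.04 and 5.85), with a log2FC of 1.44 ± 0.21 (adjusted p = 0.00149). Slc13a4, a sulfate transporter, was 7.45 to 7.86 at D1, 8.78 to 9.67 at D30 and 8.32 to 9.72 at D180 (medians 7.58, 8.90 and 9.13), with a log2FC of 1.39 ± 0.22 (adjusted p = 0.0019). In both, every D180 lung lay above every D1 lung. Both were also among the largest rises at D30 against D1 (log2FC 1.64 and 1.42). Cdh22, a cadherin, was 8.34 to 9.09 at D1, 7.71 to 8.78 at D30 and 6.97 to 7.78 at D180 (medians 8.58, 8.18 and 7.26), with a log2FC of -1.33 ± 0.17 (adjusted p = 0.000732), and Fam151a was 9.71 to 10.28 at D1, 8.91 to 10.01 at D30 and 8.49 to 9.10 at D180 (medians 10.08, 9.57 and 8.76), with a log2FC of -1.28 ± 0.18 (adjusted p = 0.00122), each with D30 between the other days. The log2FC of the rest were 1.52, 1.42, 1.32, 1.29 and 1.26 for the genes that rose and -1.44, -1.37 and -1.31 for those that fell, in the order named. With normexp background correction 10 of the 24 genes named by size of change had a log2FC more than 1.5 times smaller, at 0.62 for Sh2d1b2, 0.64 for Caln1, 0.47 for Adamts4, 0.76 for Fam43b, 0.59 for Lrrc37a, 0.61 for Mpzl1, 0.60 for Rpusd2, -0.63 for Shisa8, -0.51 for Rnase1l2 and -0.78 for Mup4, and the cause was not tested. It also gave -0.58 for Melk and 0.76 for Cxcl9. Of the 24 genes, 13 had 15 further probes. Of these, 10 were well above background on at least 4 of 6 arrays of both days, and 8 of the 10 had the same sign. Those of Ammecr1 (0.15) and Fam43b (-0.37, adjusted p = 0.214) did not. The 2 probes of Fam43b were about equally bright at D1 (means 5.52 and 5.57), so its rise rests on 1 probe.

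The 3 other genes among the 12 largest falls, Ammecr1, Pgm5 and Apcdd1l, shared a feature of their probes. The 60-base probes of all 3 held a run of alternating G and A, and their part with the run is shown (30 bases, capitals mark the run, positions counted from 1 at the 5′ end of the probe). The array annotation placed them in rn4 at chrX:35692550-35692609 (+ strand, Ammecr1, positions 17 to 46), chr1:228107107-228107166 (- strand, Pgm5, positions 31 to 60) and chr3:164683908-164683967 (- strand, Apcdd1l, positions 31 to 60). Abca12, at chr9:70327442-70327501 (- strand, positions 31 to 60), is a further called gene of the kind. Exon or intron position was not determined here.
Ammecr1: gcttttacaaaaaagaaAGAGAGAGAGAGA
Pgm5: agagacagGAGAGAGAGAGAGAGAGAGAGA
Apcdd1l: tattatccGAGAGAGAGAGAGAGAGAGAGA
Abca12: gctttgtaccGAGAGAGAGAGAGAGAGAGA
The other probes of Ammecr1, Pgm5 and Apcdd1l lacked the run, as the same stretch of positions 31 to 60 shows, and lay at chrX:35690485-35690544 (+ strand), at chr1:228133385-228152959 (- strand, a span longer than the probe) and at chr3:164685545-164685604 (- strand).
Ammecr1, other probe: tcgccagcatcatcacttccaaaatggcat
Pgm5, other probe: gaggatcatcttttcggatgcatcacggct
Apcdd1l, other probe: agctgtggtggcccaggaatctggtcagta

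The probe of Ammecr1 with the run was 12.80 to 14.74 at D1, 11.38 to 14.25 at D30 and 9.46 to 12.34 at D180 (medians 13.03, 12.94 and 11.76), with a log2FC of -2.13 ± 0.58 (adjusted p = 0.0307). The other probe of the gene had means of 4.48, 4.64 and 4.63 at D1, D30 and D180. The run-bearing probe of Pgm5 was 14.75 to 16.30 at D1, 13.50 to 16.08 at D30 and 11.63 to 14.33 at D180 (medians 14.88, 14.85 and 13.73), with a log2FC of -1.68 ± 0.47 (adjusted p = 0.0346), and the other probe had means of 6.30, 6.21 and 5.81. That of Apcdd1l was 14.18 to 15.91 at D1, 13.04 to 15.67 at D30 and 11.15 to 14.12 at D180 (medians 14.41, 14.43 and 13.32), with a log2FC of -1.61 ± 0.48 (adjusted p = 0.0465), and the other probe had means of 4.15, 3.81 and 3.94. The other probes had log2FC of 0.15 (Ammecr1, well above background on 4 of 6 D1 and 5 of 6 D180 arrays), -0.49 (Pgm5, on all arrays, adjusted p = 0.195) and -0.21 (Apcdd1l, on 2 of 6 arrays of each day, too dim to check the fall). None of the 3 genes was called with slide or scan date as a random block.

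Grouping by repeat was chosen after these values were seen, so it is a description and carries no test. Of the 10 tested genes whose probe held 6 or more GA pairs in a row, 9 had a negative log2FC at D180 against D1 and 5 were called lower (background 0.698%), with a median of -1.61 and a range of -2.23 to 0.27. Their median at D30 against D1 was -0.07 and 0 were called. The 7 genes with 6 TC pairs in a row had a median of 0.17, the 27 with CA pairs -0.09 and the 31 with TG pairs 0.28, and all 31 of the last had a positive log2FC, although 0 were called. At D30 against D1 the median of these 31 genes was 0.45. Leaving out the 10 genes changed the number of called genes from 301 to 295.

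**Figure D4:**
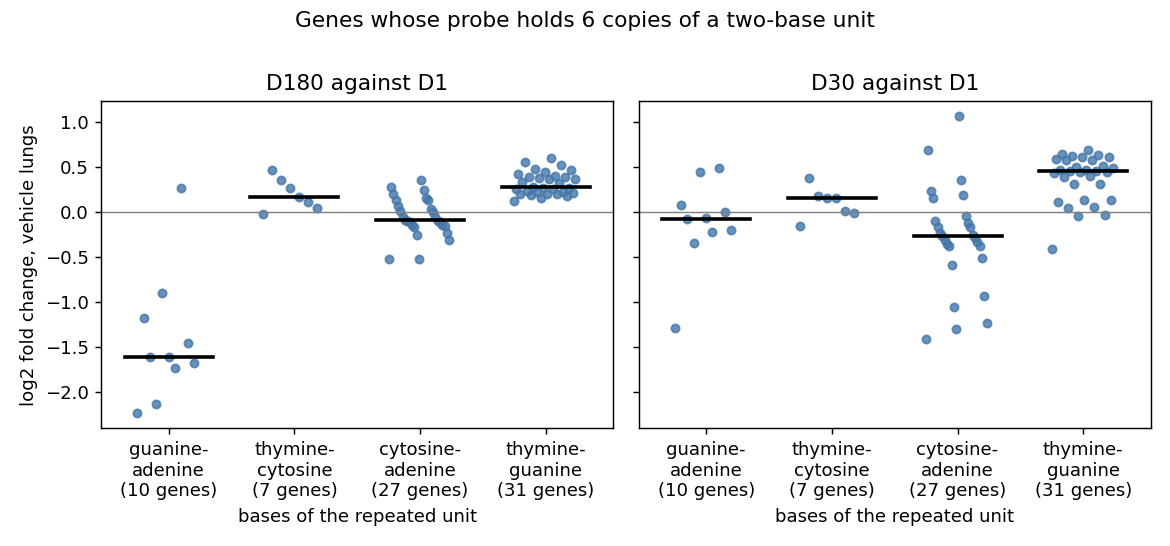
Log2FC (vertical axis) of genes whose probe holds 6 copies of a repeated pair of bases, by the bases of the repeat (horizontal axis), in D180 against D1 (left) and D30 against D1 (right) of vehicle lungs, with black lines at the medians. Genes with the guanine-adenine repeat have a median of -1.61 at D180 and -0.07 at D30, whereas the 31 genes with the thymine-guanine repeat lie above 0 at D180.

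At D30 against D1, 519 genes were called (2.29%), 130 higher (0.575%) and 389 lower (1.72%), 472 of them (90.9%) below the median signal, and for 283 no array of one of the days was well above background. With 75th percentile scaling 1513 genes were called, 18 (1.19%) of them higher, in place of 130 of 519 (25.0%). With scan date as a random block the number was 53, and without D1 replicate 2 it was 304. The largest measurable fall was that of Foxe1, a forkhead transcription factor. Foxe1 was 12.40 to 13.76 at D1, 8.70 to 10.10 at D30 and 10.24 to 13.48 at D180 (medians 13.04, 9.72 and 12.25), so that the D30 lungs lay below all others and D180 against D30 was a rise (log2FC 2.57, adjusted p = 0.00177). Its D30 against D1 log2FC was -3.45 (adjusted p = 0.00054). Fsip2 (-2.63), Mcc (-2.56) and Krt80 (-2.14) were the other large falls beside Saal1, with log2FC at D30 in parentheses, and none of these 3 was called with slide or scan date as a random block. The 3 genes shared their extreme lungs. D1 replicate 2 was the highest D1 lung (10.91, 11.90 and 11.60) and D30 replicate 4 the lowest D30 lung (4.26, 6.69 and 6.99). The run-bearing probe of Ammecr1 had its D1 high and D30 low in the same 2 lungs (14.74 and 11.38). What these lungs shared was not tested. Besides Adamts4 and Slc13a4, the largest rises were Cacnb4 (1.23), Scai (1.19) and Grap2 (1.17). Scai, a regulator of cell migration, was 5.03 to 5.85 at D1, 6.42 to 6.93 at D30 and 5.28 to 5.85 at D180 (medians 5.64, 6.75 and 5.56), high at D30 alone, and its log2FC at D30 against D1 was 0.58 with normexp.

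In D180 against D30, 494 genes were called (2.18%), 362 higher (1.60%) and 132 lower (0.584%), and 2156 passed by adjusted p alone (9.53%). With 75th percentile scaling 694 were called, 92.1% of them higher in place of 73.3%, and with scan date as a random block 141. After Foxe1, the muscle ubiquitin ligase Trim55 (2.28), the neuronal nitric oxide synthase Nos1 (2.27), Igsf21 (1.75) and Rnase17 (1.74) rose most among the named genes. Nos1 was 5.36 to 7.03 at D1, 3.41 to 5.27 at D30 and 6.19 to 7.68 at D180 (medians 5.71, 4.77 and 6.77), lowest at D30. Trim55 was 5.38 to 7.13 at D1, 4.33 to 5.22 at D30 and 5.64 to 8.29 at D180 (medians 5.99, 4.82 and 7.23), and its highest value was at D180. With normexp the log2FC of Nos1 was 1.05 and that of Trim55 1.15. The other probe of Trim55, well above background on 3 of 6 D30 and 4 of 6 D180 arrays, gave 0.13. Ksr2 (-2.66), Notch2 (-1.37), Gar1 (-1.29), Htr6 (-1.22) and Mmp14 (-1.18) fell most. The other probes of Gar1 and Mmp14, well above background on all arrays, gave log2FC of -0.23 and -1.25, so the fall of Gar1 rests on 1 probe. Of these falls, that of Mmp14 had the smallest adjusted p (2.2e-05) and was on a bright probe, at 11.50 to 12.10 at D1, 11.83 to 12.18 at D30 and 10.68 to 10.95 at D180 (medians 11.71, 12.02 and 10.80).

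For 71 of the genes called in D180 against D1 no array of one day was well above background, which gives only a bound, computed against the dimmest signal still well above background on each array. The protocadherin Pcdhb3 was at least 3.00-fold higher at D180 than at D1, and the choline transporter-like Slc44a5 at least 3.14-fold lower. Mpo, the myeloperoxidase of neutrophil granules, and the cadherin Cdh9 were called higher, and the channel Calhm1 and the aldehyde oxidase Aox4 lower. No fold is given for these 4, because at their brighter day the probe was well above background in only 2 of 6 lungs for Mpo, Cdh9 and Calhm1 and in 1 of 6 for Aox4. Pcdhb3 was 1.98 to 3.58 at D1, 2.64 to 4.92 at D30 and 3.97 to 7.62 at D180 (medians 2.91, 4.38 and 4.61) and was well above background in 4 of 6 lungs at D180 (fit adjusted p = 0.0151). Slc44a5 was 4.25 to 7.68 at D1, 2.60 to 4.49 at D30 and 1.91 to 3.61 at D180 (medians 4.93, 3.57 and 2.25) and was well above background in 5 of 6 lungs at D1 (fit adjusted p = 0.00347).

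The rats given DQ-12 went through the same days on other arrays, although some of those arrays shared a scan date with vehicle arrays of the same day. Their D180 against D1 comparison (36 arrays fitted together) is set beside that of the vehicle rats as a description, since silica also acted in these lungs. Of the 143 genes called higher in vehicle lungs, 118 (82.5%, against 49.3% of all genes) had a positive log2FC in DQ-12 lungs and 42 (29.4%) were higher there by adjusted p, against 8.30% of all genes. Of the 158 called lower, 101 (63.9%, against 50.7% of all genes) had a negative log2FC and 29 (18.4%) were lower by adjusted p, against 7.25% of all genes, while 2 were higher. The difference in change between DQ-12 and vehicle rats passed an interaction test for 19 of the 143 and 24 of the 158. The median log2FC of the genes called higher was 1.29 in vehicle lungs and 0.49 in DQ-12 lungs. For the genes called lower the medians were -1.30 and -0.14. The genes had been chosen by their change in vehicle lungs.

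The fibrillar collagens fell in DQ-12 lungs too, with log2FC of -1.41 ± 0.19 (adjusted p = 2.43e-06) for Col1a1, -1.23 ± 0.18 (adjusted p = 1.02e-05) for Col1a2 and -1.55 ± 0.21 (adjusted p = 2.37e-06) for Col3a1. For Col6a1 the fall was larger in DQ-12 lungs (log2FC -1.53, against -0.67 in vehicle lungs in the same fit, interaction adjusted p = 0.000423). Cdk1 (-1.54), Saal1 (-2.96), Fam151a (-1.95) and Cdh22 (-1.30) also fell, and Tac1 (1.14), Sstr1 (1.16) and Gzmb (1.24) rose, with log2FC in DQ-12 lungs in parentheses. Their mean changes thus had the direction seen in vehicle lungs. The levels of Saal1 differed, however, with means of 16.05 at D1 and 13.10 at D180 in DQ-12 lungs, against 11.59 and 9.74 in vehicle lungs. Jchain rose more in DQ-12 lungs, by a log2FC of 4.28 ± 0.30 (adjusted p = 1.21e-11), with an interaction of 2.81 (adjusted p = 0.000124). Cntn1, in contrast, had a log2FC of 0.42 (interaction adjusted p = 0.0237). Bpifb1 fell in vehicle lungs only, with a DQ-12 log2FC of 0.36 (adjusted p = 0.533) and an interaction adjusted p of 0.00991. Trem2 moved in opposite directions, as its log2FC in DQ-12 lungs was 2.04 ± 0.21 (adjusted p = 2.93e-08) and its interaction adjusted p was 7.48e-07.

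**Figure D5:**
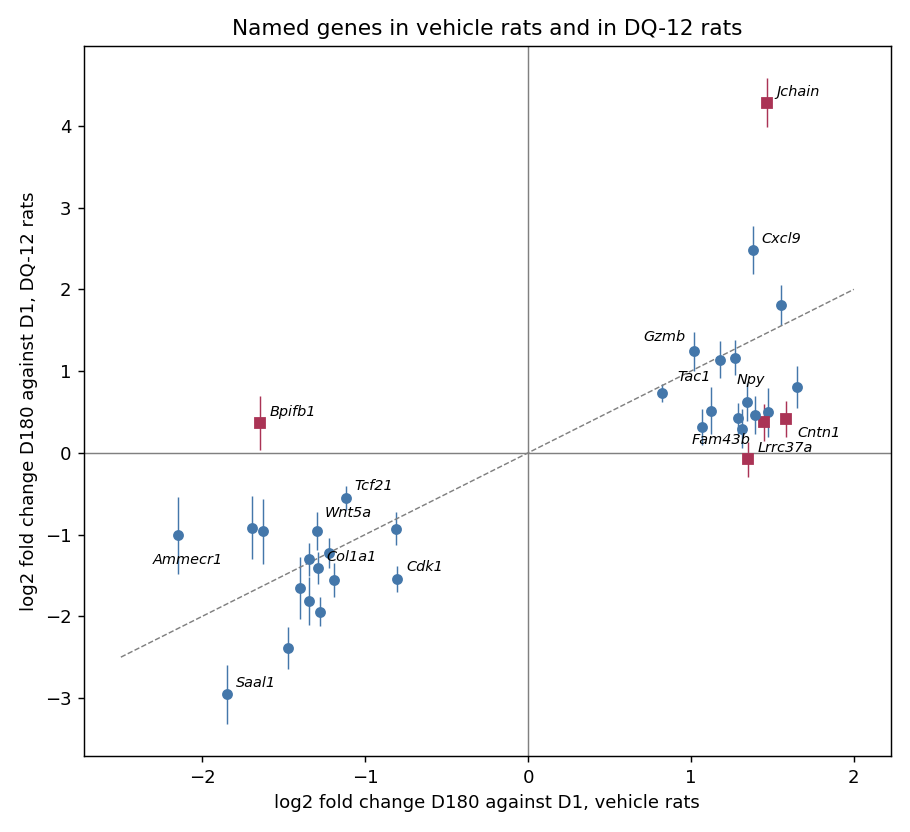
Log2FC of D180 against D1 in vehicle rats (horizontal axis) and in DQ-12 rats (vertical axis, with bars of 1 SE) from the fit of all 36 arrays, for the named genes. Red squares mark genes whose change differed between the treatments by the interaction test, and the dashed line is where both changes are equal. Jchain lies far above the line, at 4.28 in DQ-12 rats, and Bpifb1, which fell in vehicle rats, lies at 0.36 in DQ-12 rats.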

How the data were processed

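The samples were rat lung RNA on single-color Agilent arrays with 60-base probes, 1 array per rat, grouped by their labels. Per the file headers, the deposited scanner files hold background-corrected intensities made with Agilent Feature Extraction 12.0.1.1. The authors also deposited a table of log2 values, which comparison with the scanner files showed to be scaled to each array's 75th percentile and centered on each probe's median, and it was used as an alternative. The array annotation gives probe positions in rn4.

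From the scanner files, outlier spots (232 to 596 per array) were left out of 58717, 0 spots were saturated, and replicate spots were averaged to 45598 probes, 36146 of them with a gene name. Probes above the 95th percentile of 308 negative control spots on at least 6 arrays were kept (39504) and quantile normalized on the log2 scale. Each gene was read from its brightest probe, which gave 22622 genes, 6123 with provisional names, and 115 missing values in 114 genes were left missing. Array signal has no counting depth, and the number of arrays limits the precision. The RefSeq annotation (GRCr8) held the accession of 14126 genes, and 1293 of them had another symbol there.

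The 3 days were compared in 1 fit of the 18 vehicle arrays with limma 3.58.1 in R 4.3.3 (lmFit, eBayes), with statmod 1.5.0 for random blocks, and figures were drawn with matplotlib 3.10.9. Benjamini–Hochberg adjustment ran over all genes tested. The scripts were tested on simulated data. Spike-ins were compared by exact permutation of the arrays, for which 462 splits per comparison gave a smallest possible two-sided p of 0.00216. Named genes were the 12 largest called changes per direction in D180 against D1 and the 5 largest per direction in each other comparison, without provisional names, with days that did not overlap and at least 4 of 6 arrays of each day well above background, together with members of 38 gene lists and the 3 largest called changes per direction with no array of one day well above background. The members and the lists were chosen with earlier results of these data known. Each array was 1 rat, so the spread is that between rats.

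The replicate numbers in the labels were checked for pairing. The deviations of same-numbered lungs of different days from their day's mean correlated with r from -0.14 to 0.27, and 2, 2 and 3 of 6 pairs in the 3 comparisons of days were over 0.1, so the numbers were not taken to pair the rats. The alternatives concerned background correction, scaling, the filter, probe summary, the arrays fitted, moderation, blocks, thresholds and the leaving out of each lung.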

Additional observations from a re-analysis of the deposited data

Results flagged for a closer look

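A lung stood apart from the other 5 of its day, by Dixon's gap ratio (the gap to the nearest lung over the range of the day), in 16 of 177 groups of 6 values, where chance gives about 1 in 20. At D1 these were Fam43b (ratio 0.63, replicate 3 highest), Ammecr1 (0.706) and Pgm5 (0.669). In Ammecr1 and Pgm5, both read by probes with the guanine-adenine run, the same lung was highest, replicate 2, at 14.74 against at most 13.37 for Ammecr1 and at 16.30 against at most 15.27 for Pgm5. At D30 they were Saal1 (0.671, replicate 6 lowest), Shisa8 (0.789, replicate 4 highest), Mup4 (0.795, replicate 4 highest) and Pcdhb3 (0.729, replicate 1 lowest). The 75th percentile of log2 signal also stood apart at D30 (0.824), where replicate 4 had 9.83 and the next lung 8.36.

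At D180 they were Caln1 (0.668, replicate 1 highest), Lrrc37a (0.721, replicate 1 highest, 7.54 against at most 6.25), Pcdhb3 (0.644, replicate 1 highest), Adamts4 (0.87, replicate 6 lowest, 5.12 against at least 5.84), Agr2 (0.648, replicate 6 lowest), Tac1 (0.698, replicate 4 lowest), Slc44a5 (0.773, replicate 4 highest) and Mup4 (0.769, replicate 5 lowest). Replicate 1 was thus the high lung in 3 of these genes.

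Of 48 genes compared with the DQ-12 rats, the D180 against D1 change differed between the treatments for 9 by the interaction term of limma. The difference, DQ-12 minus vehicle on the log2 scale, was positive for Jchain (2.81, adjusted p = 0.000124), Trem2 (2.87, adjusted p = 7.48e-07), Bpifb1 (2.01, adjusted p = 0.00991) and Cd177 (1.61, adjusted p = 0.00136). It was negative for Cntn1 (-1.17, adjusted p = 0.0237), Fam43b (-1.07, adjusted p = 0.0497), Lrrc37a (-1.43, adjusted p = 0.00392), Col6a1 (-0.857, adjusted p = 0.000423) and Ndn (-0.638, adjusted p = 0.0326). For Col6a1 and Ndn both treatments had negative changes, and for Lrrc37a the DQ-12 change was -0.08 where the vehicle change was 1.35. Fam43b was read by 1 probe, and its other probe had a vehicle log2FC of -0.37.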

How the results depend on the processing

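Day cannot be told apart from scan date or slide, dim probes carried most large changes, and the balance of rises and falls changed with the scaling. Of 154 genes followed, 36 of the 134 in D180 against D1 kept their side of the threshold (both thresholds for genes named by size, adjusted p for list members) under every alternative other than the test against a 2-fold change, 23 of which fell and 13 rose.

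The numbers of called genes, 301 in D180 against D1, 519 in D30 against D1 and 494 in D180 against D30, became 498, 1513 and 694 with 75th percentile scaling, 496, 1501 and 690 with the deposited log2 values, 48, 55 and 68 with normexp, 70, 69 and 98 with the median signal without background correction, 130, 149 and 287 with slide as a random block, and 99, 53 and 141 with scan date as a random block. They were 232, 233 and 239 with only genes well above background on each array of at least 1 day, 904, 848 and 1074 at a fold of 1.5, 1882, 1159 and 2156 by adjusted p alone, and 0, 2 and 1 with limma's treat against 2-fold (61 genes at an unadjusted p under 0.05 in D180 against D1). No filter gave 274, 492 and 483, the median over probes 226, 461 and 418, all 36 arrays 418, 656 and 647, the 12 arrays of the days compared 218, 587 and 408, array weights 401, 755 and 668, trended moderation 329, 507 and 516, and every probe on its own 382, 697 and 684. Leaving out any 1 lung gave 194 (without D1 replicate 6) to 484 (without D180 replicate 4), 304 (without D1 replicate 2, with 324 without D1 replicate 4 and 324 without D30 replicate 5) to 567, and 377 to 612. Chosen after seeing the data, centering by probe GC gave 270, 501 and 528, and leaving out repeat-bearing probes 295, 519 and 492. With the replicate number as a block, although the numbers do not pair the rats, the counts were 288, 458 and 452, and 2, 2 and 4 of 6 lungs correlated best with their own number.

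Of the 4309 values of single genes under the alternatives, 9 turned direction. Eomes, at 1.07, became -0.88 with normexp, -0.99 with the median signal, -0.0194 with the median over probes and -1.09 with the 12 arrays of the days compared, and leaving out 1 lung gave -1.04 (without D180 replicate 3, with -0.95 without D180 replicate 5) to 1.21. With the median over probes Dnah9 and P3h3 became 0.11, and with the 12 arrays Rps14 became 0.10. Of 168 counts of list members under the alternatives, 44 moved by over 1.5 times. The cause was not tested.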
